A study of Mus musculus with 8 samples.

Results

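The genes described are 10 members of the Notch pathway in mouse skin keratinocytes: the receptors Notch1, Notch2 and Notch3, the ligands Jag1, Jag2 and Dll1, the DNA-binding factor Rbpj, its coactivator Maml1, and the targets Hes1 and Hey1. They were chosen by symbol from 24421 gene symbols. All 10 members had counts in every library and passed the filter on low counts, Hey1 through the control libraries alone, among 13016 genes tested. Bulk RNA sequencing was available from 8 libraries. The 4 knockout libraries came from InvEE mice with K5-Cre and homozygous floxed Hmgb1 (labelled KO), and the 4 control libraries from InvEE mice with homozygous floxed Hmgb1 and no K5-Cre (labelled WT). Both groups are on a CBA x C57Bl/6J background, and both carry InvEE, an activated form of the kinase MEK1 driven by the involucrin promoter in suprabasal keratinocytes. K5-Cre acts in basal keratinocytes and their descendants. Only the knockouts carried Cre, so an effect of Cre itself and the loss of Hmgb1, which encodes a DNA-bending protein of chromatin, cannot be told apart. Age is not given in the sources used here. Nor do the labels say whether replicates came from different mice, so the p-values speak of differences among libraries that could in part be technical.

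Notch signalling passes between touching cells. A ligand of the Jagged or Delta type on the sending cell leads ADAM proteases and then gamma-secretase to cut the receptor, and the freed intracellular part joins Rbpj and a Mastermind protein on DNA to switch on genes such as those of the Hes and Hey families. In the epidermis Notch is known for promoting the step from the basal to the suprabasal layer, and its loss in mouse skin leads to barrier defects, inflammation and tumours.

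Library totals over genes were 30506676 to 34229030 counts. Hmgb1 was at 113, 119, 126 and 114 CPM (counts scaled to library size, with TMM factors) in knockout replicates 1 to 4, against 565.5, 599, 585.5 and 615 CPM in control replicates 1 to 4. It fell in every knockout library (log2 fold change -2.32, SE 0.09, edgeR adjusted p = 3.58e-07). Y-linked transcripts were present in 3 libraries, knockout replicate 1 and control replicates 2 and 3, with 6110 to 6743 counts over 4 genes, and at 0 to 51 counts in the other 5. A fit within the 5 libraries without Y-linked transcripts (3 knockout, 2 control) is given beside the pooled values. The libraries with Y-linked transcripts hold 1 knockout and were not fitted alone.

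Among the 10 members, Hey1 passed the test, lower in the knockout, and the other 9 did not. A member passed where its adjusted p, over all 13016 tested genes, was under 0.05 in edgeR's quasi-likelihood test. Over all tested genes 8.87% passed that test in either direction with 4.33% higher and 4.54% lower, so 1 call among 10 members lies near the background. In bulk RNA a lower level cannot tell fewer cells that make a transcript from less of it per cell. The groups did not overlap for 3 of the 10 members (Jag2, Rbpj and Hey1), while they did not overlap for 17.0% of all tested genes. An unadjusted p under 0.05 was found for 4 of the 10 members (Notch2, Jag2, Rbpj and Hey1) and for 26.2% of all tested genes. The median log2 fold change was 0.11 over the members and -0.02 over all tested genes. A positive value was found for 7 of the 10 members and for 6100 of the 13016 tested genes.

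**Figure D1:**
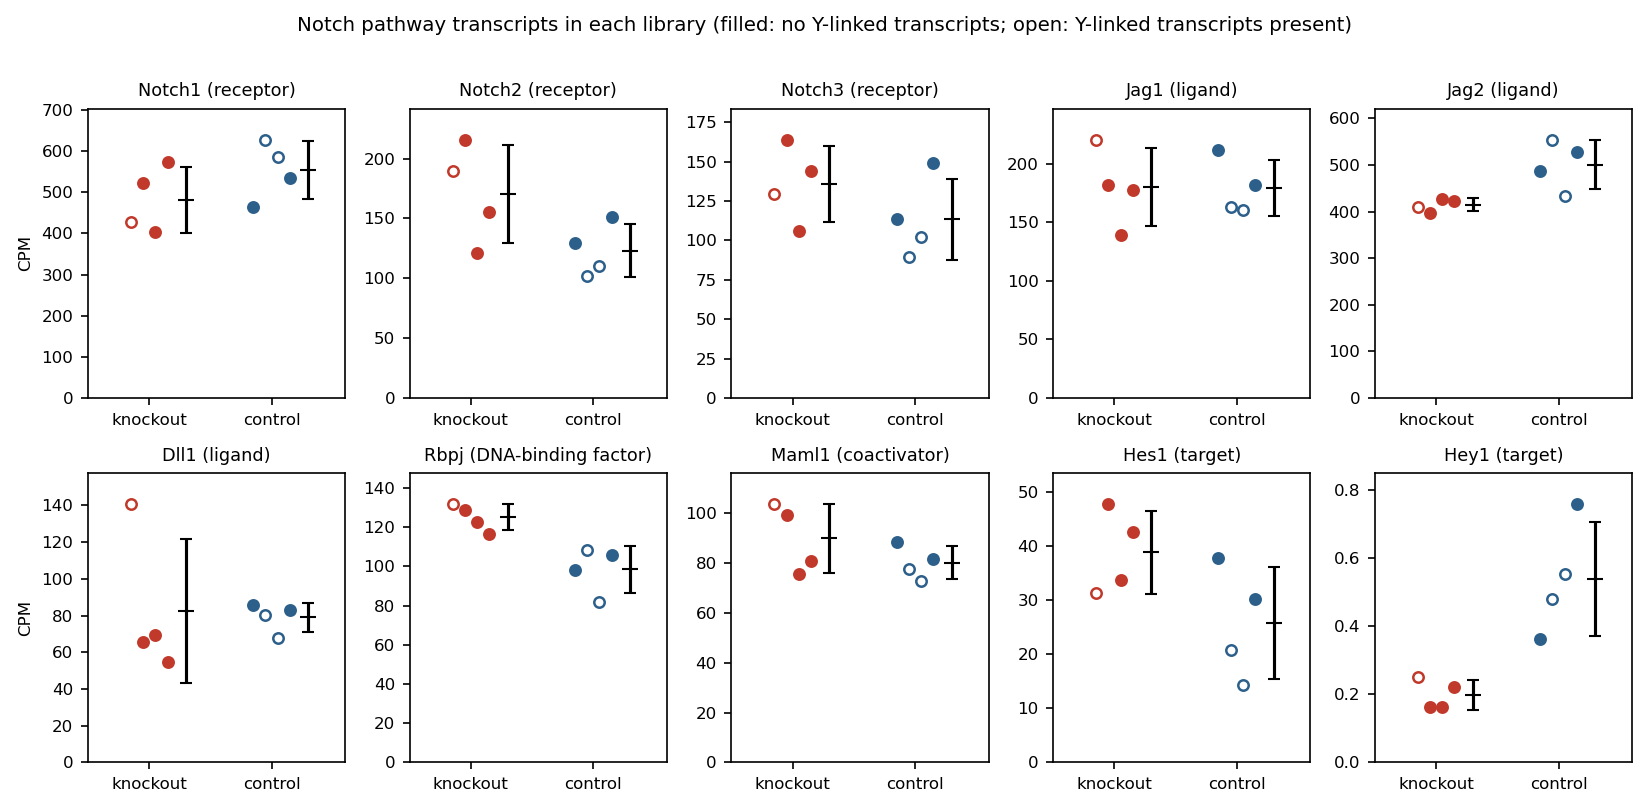
CPM of each Notch pathway member in every library (y axis from 0), with knockout libraries in red on the left and control libraries in blue on the right; bars give the mean and SD of 4 libraries, and open circles mark the 3 libraries with Y-linked transcripts. The groups are separate for Jag2, Rbpj and Hey1, and the 2 open control circles are the lowest values of Notch2, Notch3 and Hes1 among the 8 libraries.

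Levels between genes were compared per length, as CPM per kilobase of the longest transcript in the basic GENCODE M21 set. Jag2 stood highest at 81.2 ± 2.71 CPM per kilobase in knockouts and 98.03 ± 10.3 in controls (SD, n = 4 each). Notch1 followed at 50.8 ± 8.37 in knockouts and 58.3 ± 7.41 in controls, and Jag1 came next at 32.03 ± 5.93 and 31.98 ± 4.23. In controls these 3 were apart from each other and from Dll1, at 22.1 ± 2.20 CPM per kilobase, by more than their SDs. Rbpj (17.96 ± 2.18), Hes1 (17.5 ± 6.99), Maml1 (14.5 ± 1.195), Notch3 (14.2 ± 3.21) and Notch2 (11.7 ± 2.07) came below it in controls, and no 2 neighbours from Dll1 down to Notch2 were apart by more than their SDs. In knockouts Hes1, at 26.4 ± 5.21 CPM per kilobase, took the place below Jag1, from which it was not apart. Hey1 was far below the rest, at 0.0822 ± 0.0181 CPM per kilobase in knockouts and 0.223 ± 0.0688 in controls. With the length of all annotated exons in place of the longest transcript, Rbpj dropped below Notch2, to 9.80 CPM per kilobase in knockouts and 7.73 in controls. Jag2, Notch1 and Jag1 kept the same order, but Notch1 came closer to Jag1. Per kilobase of exons Notch1 was at 33.85 CPM in knockouts and 38.88 in controls, and Jag1 at 30.85 and 30.8. The statement that these genes were apart by more than their SDs is for the longest transcript only.

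**Figure D2:**
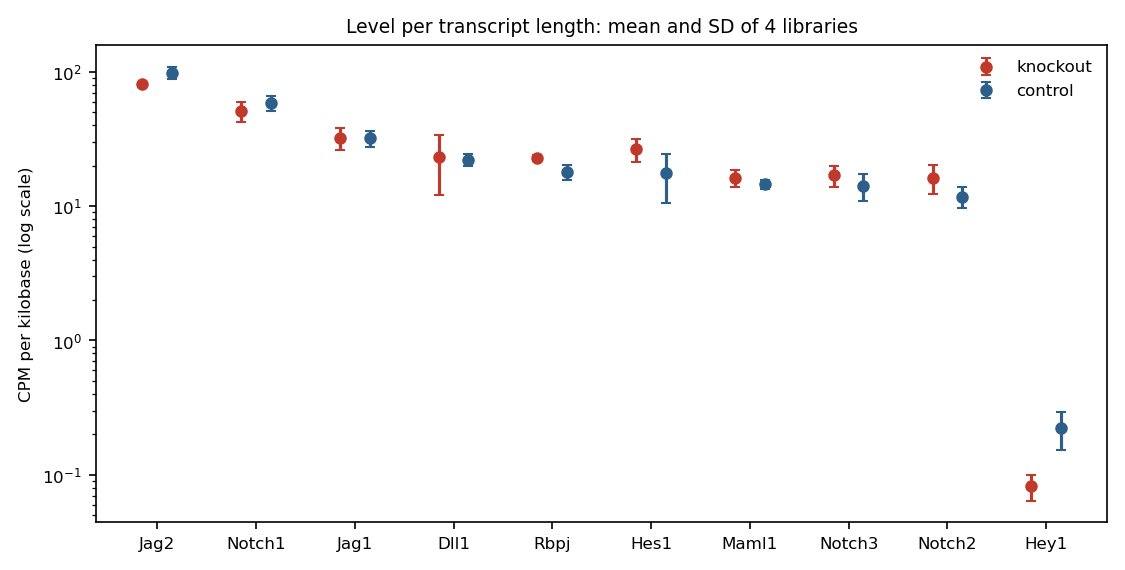
Mean level per transcript length (CPM per kilobase, log scale) of each member, with knockouts in red left of controls in blue and bars of 1 SD over 4 libraries. Jag2, Notch1 and Jag1 lead in both groups, 6 members sit close together below them in controls, and Hey1 lies far below.

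Among the receptors, Notch1, the main receptor of the epidermis and a tumour suppressor in mouse skin (chromosome 2, 26457902 to 26503822, mm10), was at 427, 522, 405 and 573 CPM in knockout replicates 1 to 4. Control replicates 1 to 4 had 464, 628, 586 and 535 CPM. The groups overlapped, with 2 knockout libraries below every control and the others within the control range. The log2 fold change was -0.20 (95% interval -0.50 to 0.10, adjusted p = 0.386). In the 5 libraries lacking Y-linked transcripts it was 0.001 (adjusted p = 1.00).

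Notch2 (chromosome 3, 98013538 to 98150367), a second receptor made in keratinocytes, was at 189.5, 216, 121 and 155.5 CPM in knockout replicates 1 to 4, against 130, 102, 110.0 and 151 CPM in control replicates 1 to 4. Of the knockout libraries 3 stood above every control and replicate 3 lay inside the control range. The fitted level was 1.38-fold that of controls (log2 0.47, 95% interval 0.06 to 0.87), with an unadjusted p of 0.0283 and an adjusted p of 0.138 by edgeR. Without knockout replicate 3, the knockout library inside the control range, the log2 fold change was 0.60 and the adjusted p 0.0431, which is a call. It was the only call among the 8 fits with 1 library left out (edgeR adjusted p 0.0431 to 0.326). In the libraries lacking Y-linked transcripts the log2 fold change was 0.23 (adjusted p = 0.714).

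Notch3 (chromosome 17, 32120820 to 32166896), which in the epidermis is found above the basal layer and elsewhere in the muscle cells of vessels, was at 129, 164, 106 and 144 CPM in knockout replicates 1 to 4 and at 113, 89.5, 102 and 149 CPM in control replicates 1 to 4. The groups overlapped across most of their range. Its log2 fold change was 0.26 (95% interval -0.12 to 0.64, adjusted p = 0.370), and 0.07 in the libraries lacking Y-linked transcripts. The 7 markers of pericytes and smooth muscle summed to 42.1 to 54.4 CPM in knockouts and 48.0 to 55.6 CPM in controls, most of it Cspg4, which some keratinocytes also make (39.6 to 50.5 CPM in knockouts and 46.7 to 54.8 CPM in controls). Of the 2 tested, Acta2 rose, to 3.60 ± 0.73 CPM in knockouts, against 1.13 ± 0.37 CPM in controls (SD, n = 4 each, edgeR adjusted p = 0.00723). Rgs5 was at 0 to 0.0655 CPM in knockouts and 0.0292 to 0.0616 CPM in controls, Pdgfrb at 0 in knockouts and up to 0.154 CPM in controls, and Des had no count in any library.

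The balance of the receptors within a library does not depend on library scaling. Notch2 counts over Notch1 counts, on the log2 scale, were -1.17, -1.27, -1.75 and -1.88 in knockout replicates 1 to 4. They were -1.84, -2.62, -2.41 and -1.83 in control replicates 1 to 4. The means were -1.52 ± 0.35 in knockouts and -2.17 ± 0.40 in controls (SD, n = 4 each), a difference of 0.66, and knockout replicate 4 lay within the control range. In the libraries without Y-linked transcripts that difference was 0.20. Notch3 over Notch1 averaged -1.83 ± 0.16 in knockouts and -2.30 ± 0.44 in controls, a difference of 0.47, which was 0.07 in the libraries without Y-linked transcripts. For both ratios the lowest values of all were those of control replicates 2 and 3. These ratios are described without a test.

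**Figure D3:**
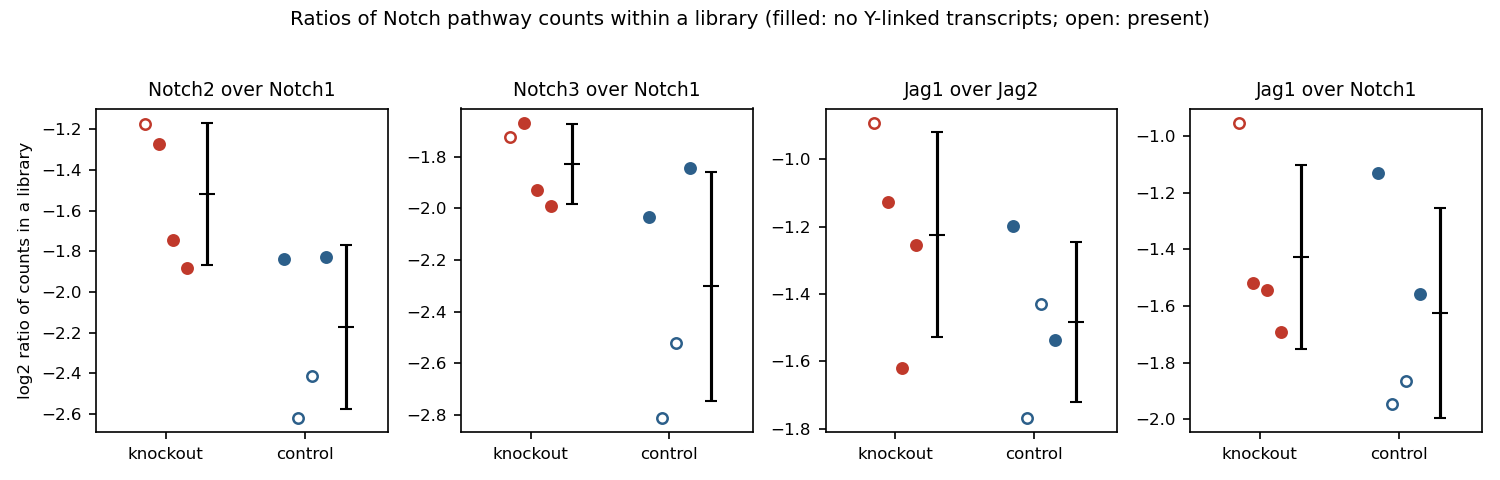
Log2 ratio of the counts of 2 members within each library, with knockouts in red left of controls in blue, bars of the mean and SD over 4 libraries, and open circles for libraries with Y-linked transcripts. The 2 open control circles lie below all other libraries for Notch2 over Notch1 and Notch3 over Notch1, and the groups overlap in all 4 ratios.

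Among the ligands, Jag2 (chromosome 12, 112907803 to 112929812), a ligand of the basal layer, had the lower values in knockouts. It was at 409, 397, 427 and 424 CPM in knockout replicates 1 to 4, against 487, 554, 434 and 527.5 CPM in control replicates 1 to 4. Every knockout library lay below every control, though by a narrow margin between knockout replicate 3 and control replicate 3, and the knockout libraries lay closer together (SD 13.8 CPM in knockouts and 52.5 CPM in controls). The fitted level was 0.828-fold that of controls (log2 -0.27, SE 0.10, 95% interval -0.49 to -0.06). The unadjusted p was 0.0179 and the adjusted p 0.105 by edgeR, so Jag2 did not pass. The exact permutation p was 0.0286, the smallest that 4 against 4 libraries allow. With library totals in place of TMM, which shifted the median of all genes by -0.11, Jag2 was called at a log2 fold change of -0.38 (adjusted p = 0.0301). In the libraries lacking Y-linked transcripts the fold change was -0.28 (adjusted p = 0.284).

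Jag1 (chromosome 2, 137081451 to 137116520), the other Jagged ligand, was at 220, 182, 139 and 178 CPM in knockout replicates 1 to 4 and at 212, 163, 161 and 182 CPM in control replicates 1 to 4. Its log2 fold change was 0.00 (95% interval -0.31 to 0.31, adjusted p = 0.993), and its sign turned under several alternatives. Jag1 over Jag2 within a library averaged -1.22 ± 0.30 on the log2 scale in knockouts and -1.48 ± 0.24 in controls (SD, n = 4 each), and Jag1 over Notch1 averaged -1.43 ± 0.32 in knockouts and -1.62 ± 0.37 in controls. The groups overlapped in both ratios.

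Dll1 (chromosome 17, 15367354 to 15376932), a Delta ligand, was at 141, 65.8, 69.6 and 54.7 CPM in knockout replicates 1 to 4 and at 85.7, 80.3, 67.8 and 82.8 CPM in control replicates 1 to 4. Knockout replicate 1, a library with Y-linked transcripts, stood far above the other 7 libraries. The pooled log2 fold change of 0.06 (95% interval -0.56 to 0.68, adjusted p = 0.908) rested on that library. Without it the value was -0.31 (adjusted p = 0.147), and in the libraries lacking Y-linked transcripts -0.41 (adjusted p = 0.130).

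Rbpj (chromosome 5, 53555779 to 53657445), the factor through which all Notch receptors act on DNA, was higher in knockouts without passing the test. It was at 132, 129, 123 and 117 CPM in knockout replicates 1 to 4, against 98.2, 108, 81.7 and 106 CPM in control replicates 1 to 4. Every knockout library lay above every control. The fitted level was 1.27-fold that of controls (log2 0.34, SE 0.10, 95% interval 0.12 to 0.56), with an unadjusted p of 0.00574 and an adjusted p of 0.0582 by edgeR, just outside the threshold. DESeq2 called it (log2 0.36, adjusted p = 0.0193), and the 8 fits with 1 library left out gave edgeR adjusted p of 0.0698 to 0.144. In the libraries lacking Y-linked transcripts the log2 fold change was 0.27 (adjusted p = 0.282). The RefSeq table lists 3 pseudogene copies of Rbpj, so its counts are uncertain as far as reads of those copies were assigned to it.

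The stretch before the start of Rbpj is shown because, of the 8 members with a promoter in the RefSeq table (GRCm38.p6), Rbpj alone held the core of the Rbpj recognition sequence. The targets Hes1 and Hey1 have no promoter in that table, so theirs were not searched. Promoters were read over the 250 bases before each start, on both strands, for TGGGAA (the core) and GTGNGAA (the longer form, which a core preceded by G overlaps). TGGGAA was found in 21.6% of all 32851 promoters in the table and GTGNGAA in 12.1%. Of the 10 promoters of these 8 members, 2 held TGGGAA, both of Rbpj, and none held GTGNGAA. The 118 bases at chr5:53590096-53590213, on the plus strand, precede the annotated exon at that start, with the core at bases -149 to -144 from the start at 53590346 in capitals. A further match on the minus strand, at -65 to -60, lies inside that exon. The start at 53590346 lies inside the gene span given above for Rbpj, not at its outer end.
Rbpj: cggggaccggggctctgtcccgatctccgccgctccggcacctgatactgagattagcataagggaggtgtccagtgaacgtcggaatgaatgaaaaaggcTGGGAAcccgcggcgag
A match is a description of the letters and does not show binding.

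Maml1 (chromosome 11, 50255634 to 50293131), the Mastermind coactivator that joins the receptor fragment and Rbpj, was at 104, 99.3, 75.8 and 80.8 CPM in knockout replicates 1 to 4 and at 88.6, 77.5, 73.0 and 81.6 CPM in control replicates 1 to 4. The 2 highest libraries were knockouts and the rest were mixed. The log2 fold change was 0.16 (95% interval -0.09 to 0.42, adjusted p = 0.392), and 0.004 in the libraries lacking Y-linked transcripts.

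The fitted changes of the targets had opposite signs, and that of Hes1 did not pass. Hes1 (chromosome 16, 30065357 to 30067796), a repressor that responds quickly to Notch, was at 31.3, 47.7, 33.6 and 42.6 CPM in knockout replicates 1 to 4, against 37.6, 20.8, 14.3 and 30.2 CPM in control replicates 1 to 4. All knockout libraries lay above 3 of the controls, and control replicate 1 lay inside the knockout range. The fitted level was 1.51-fold that of controls (log2 0.59, 95% interval -0.04 to 1.22, adjusted p = 0.215). The log2 fold change was 0.28 (adjusted p = 0.448) in the libraries lacking Y-linked transcripts, and limma-voom with quality weights called Hes1 higher (0.77, adjusted p = 0.0427).

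Hey1 (chromosome 3, 8663359 to 8667038), a repressor related to Hes1, had 7, 5, 5 and 7 counts in knockout replicates 1 to 4, against 13, 15, 18 and 26 counts in control replicates 1 to 4. These are 0.251, 0.164, 0.162 and 0.221 CPM in knockouts and 0.363, 0.479, 0.554 and 0.759 CPM in controls, where 1 count was worth 0.0279 to 0.0358 CPM. Every knockout library lay below every control. Hey1 fell 2.68-fold (log2 -1.42, SE 0.36, 95% interval -2.21 to -0.64, edgeR adjusted p = 0.0347, exact permutation p = 0.0286). At so few counts the size is loosely fixed. Hey1 also passed the filter on low counts through the control libraries alone, where it was high, so its call is not independent of that filter. Leaving out 1 library at a time, 7 of 8 fits lost the call, with adjusted p of 0.0311 to 0.107 over the 8. The exception was the fit without control replicate 1. It was also lost with no filter on low counts (adjusted p = 0.0581), with a term for Y-linked transcripts (adjusted p = 0.0506) and in the libraries lacking Y-linked transcripts (log2 -1.60, adjusted p = 0.161). The direction was the same in all 19 alternatives that tested it.

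**Figure D4:**
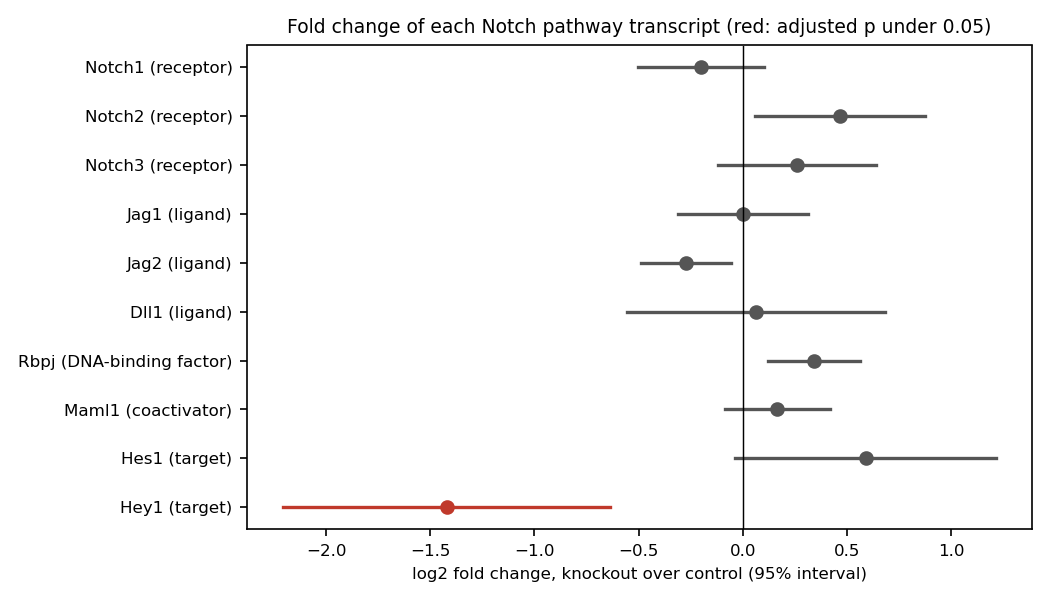
Log2 fold change of each member, knockout over control, with its 95% interval; red marks an adjusted p under 0.05. Hey1 alone is red, at -1.42, and the intervals of Notch2, Jag2 and Rbpj also leave out 0 without passing the adjusted threshold.

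By the root mean square difference of centred log2 CPM over the 8 libraries (prior count 2), the tested genes most like Hey1 were Mmp17, a membrane-bound metalloprotease (0.17), Fam46c (0.20) and Arhgap24, a GTPase-activating protein (0.21). Mmp17 averaged 1.64 ± 0.27 CPM in knockouts and 3.39 ± 0.65 CPM in controls, and Arhgap24 8.21 ± 0.69 and 17.5 ± 4.52 CPM (SD, n = 4 each). The prior count pulls a gene as low as Hey1 towards its mean, so this likeness is to the damped pattern.

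Other genes of the pathway were read from a list of 59, of which 47 were tested and 8 passed, 2 higher and 6 lower in the knockout. That is 17.0% of those tested, where 8.87% of all tested genes passed, and the median log2 fold change was -0.08 beside -0.02 over all tested genes. The list was drawn up with earlier results of these data known and carries no test of its own.

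Genes that act on ligands and receptors held 4 of those calls. Of 13 tested ubiquitin ligases and trafficking proteins, 3 fell, 1 rose and 9 did not pass. Dtx3, a Deltex-family ubiquitin ligase, fell to 20.4 ± 4.04 CPM in knockouts, against 39.3 ± 4.66 CPM in controls (SD, n = 4 each, log2 -0.94, SE 0.14, edgeR adjusted p = 0.00540). Its groups did not overlap, although knockout replicate 3, at 26.5 CPM, stood above the other knockout libraries at 18.3 to 18.5 CPM. Neurl1a, a Neuralized-type ligase for Notch ligands, fell to 0.354 ± 0.0638 CPM in knockouts, against 1.13 ± 0.0681 CPM in controls (log2 -1.66, adjusted p = 0.00569). Neurl1a had 9 to 14 counts in knockout libraries and 36 to 41 in controls. The controls alone would have kept it in the filter on low counts, and the knockout libraries alone would not. Its call is therefore not independent of that filter. Numbl, a homologue of the Notch inhibitor Numb, fell to 5.05 ± 0.22 CPM in knockouts, against 7.98 ± 1.36 CPM in controls (log2 -0.66, adjusted p = 0.0275). Dtx3l, which works with the interferon-induced protein Parp9, is named outside the rule because it was the remaining call. It rose to 58.2 ± 17.5 CPM in knockouts, against 31.6 ± 5.69 CPM in controls (log2 0.88, adjusted p = 0.0380), and its groups overlapped. Its annotated span overlaps that of Parp9 on the other strand. Leaving out 1 library at a time, Dtx3 and Neurl1a were called in 8 of 8 fits. Numbl lost the call without control replicate 1 or 2 or knockout replicate 1, 2 or 4 (adjusted p up to 0.0770), and Dtx3l without control replicate 1, 3 or 4 or knockout replicate 2, 3 or 4 (adjusted p up to 0.0875). In the libraries lacking Y-linked transcripts Dtx3 (log2 -0.92, adjusted p = 0.0386) and Dtx3l (log2 1.119, adjusted p = 0.0109) were called, and Neurl1a (log2 -1.62, adjusted p = 0.0647) and Numbl (log2 -0.72, adjusted p = 0.111) were not. The Dtx3l call was also lost with a term for Y-linked transcripts (adjusted p = 0.0768), with no filter (0.0529), with the replicate numbers as a block (0.0623) and when libraries were scaled by upper quartile (0.0563) or total (0.0645).

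Among the remaining receptor and ligands, Dlk2, a Delta-like membrane protein without the domain that binds Notch in canonical ligands, fell. It averaged 22.9 ± 3.72 CPM in knockouts and 38.8 ± 9.41 CPM in controls (SD, n = 4 each, log2 -0.76, SE 0.18, adjusted p = 0.0275). The groups did not overlap, and the highest controls, at 44.6 and 48.9 CPM, were replicates 2 and 3, which have Y-linked transcripts. In the libraries lacking those transcripts the log2 fold change was -0.53 (adjusted p = 0.0703). The call was also lost without control replicate 2 or knockout replicate 2 or 4 (adjusted p up to 0.0864). Notch4, a receptor of vessels, was at 0.194 to 0.347 CPM in knockouts and 0.128 to 0.585 CPM in controls, and Dll4 had at most 4 counts in any library. The 6 endothelial markers summed to 0.189 to 1.04 CPM in knockouts and 0.543 to 2.095 CPM in controls, and among them Cldn5 had 2 counts in knockout replicate 3 and 0 in every other library.

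Of 10 tested genes for proteases that cut Notch, 1 rose and 9 did not pass. Aph1c, a subunit of gamma-secretase, was at 6.84, 7.43, 7.99 and 7.96 CPM in knockout replicates 1 to 4, against 4.55, 2.72, 2.28 and 3.74 CPM in control replicates 1 to 4. It rose 2.27-fold (log2 1.18, SE 0.21, adjusted p = 0.01) with no overlap, and was called in 8 of 8 fits with 1 library left out and in the libraries lacking Y-linked transcripts (log2 0.91, adjusted p = 0.0451). Its near-identical neighbour Aph1b was at 19.6 ± 1.74 CPM in knockouts and 17.5 ± 1.84 CPM in controls (log2 0.16, adjusted p = 0.419), and reads of the copies may have been split between them.

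Of 10 tested corepressor genes, Tle2 and Tle1 fell and 8 did not pass. Both encode Groucho-type corepressors, which Hes and Hey proteins recruit. Tle2 was at 8.05, 9.27, 11.6 and 10.4 CPM in knockout replicates 1 to 4, against 18.9, 18.7, 16.4 and 17.9 CPM in control replicates 1 to 4 (log2 -0.87, SE 0.13, adjusted p = 0.00540). Tle1 was at 20.6, 17.1, 19.3 and 21.3 CPM in knockout replicates 1 to 4, against 25.2, 32.0, 34.01 and 29.0 CPM in control replicates 1 to 4 (log2 -0.62, SE 0.12, adjusted p = 0.0127). Every knockout library lay below every control for both genes. Both were called in 8 of 8 fits with 1 library left out, and in the libraries lacking Y-linked transcripts Tle2 kept it (log2 -0.82, adjusted p = 0.0276) and Tle1 did not (log2 -0.50, adjusted p = 0.109). Each is overlapped by an antisense gene, and the use of strand in the counts is not given in the sources used here.

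No gene passed among 6 coactivators, 4 glycosyltransferases and 2 tested further targets, by edgeR or limma-voom, where 2, 2 and 0 had an unadjusted p under 0.05 by edgeR. DESeq2 called 1 coactivator (Kat2b) and 1 glycosyltransferase (Poglut1), and limma-voom with quality weights 2 glycosyltransferases (Lfng and Poglut1). Those tools called 15.4% and 14.7% of all tested genes. Ep300, a histone acetyltransferase of the Notch complex, was at 97.8 ± 13.9 CPM in knockouts and 126 ± 16.2 CPM in controls (log2 -0.36, adjusted p = 0.0909). Rfng, a Fringe enzyme that changes which ligands a receptor answers to, was at 36.2 ± 2.45 CPM in knockouts and 41.9 ± 5.47 CPM in controls. Nrarp, a direct target that damps Notch, was at 31.2 ± 6.64 CPM in knockouts and 34.6 ± 1.62 CPM in controls (log2 -0.15, 95% interval -0.45 to 0.15). The remaining 6 Hes and Hey genes were too low to test, and Hes3 had no count.

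**Figure D5:**
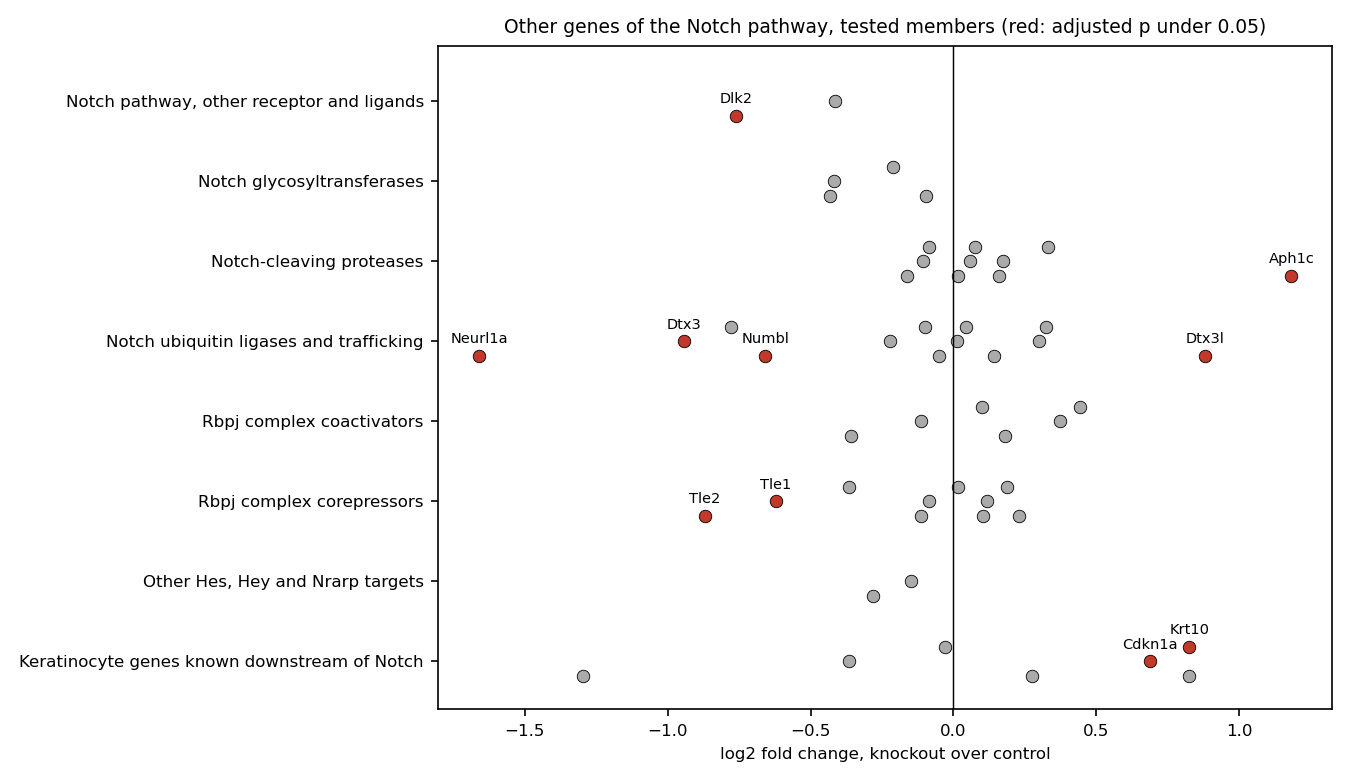
Log2 fold change, knockout over control, of the tested genes of each pathway list (points staggered for legibility); red points with names passed at an adjusted p under 0.05. Calls lie on both sides of 0, from Neurl1a at -1.66 to Aph1c at 1.18.

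Of 7 keratinocyte genes known to lie downstream of Notch or to oppose it, 2 rose and 5 did not pass by edgeR. DESeq2 also called Ivl and Wnt4, and limma-voom with quality weights also called Ivl. Over all tested genes 8.87%, 15.4% and 14.7% passed by edgeR, DESeq2 and limma-voom with quality weights. Krt10, a keratin of the suprabasal layer, rose to 9022 ± 1301 CPM in knockouts, against 5094 ± 1265 CPM in controls (SD, n = 4 each, log2 0.82, SE 0.17, edgeR adjusted p = 0.0169). The cell cycle inhibitor Cdkn1a rose to 410.5 ± 48.4 CPM in knockouts, against 255 ± 51.4 CPM in controls (log2 0.69, SE 0.15, adjusted p = 0.0225). The groups did not overlap for either gene. Both lost the call without knockout replicate 2 and in the libraries lacking Y-linked transcripts (adjusted p = 0.120 for Krt10 and 0.0594 for Cdkn1a), Krt10 also without control replicate 2 and Cdkn1a also without knockout replicate 1. Trp63, the basal regulator that Notch opposes, was at 740 to 847 CPM in knockouts and 766 to 804 CPM in controls.

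The counts of marker genes below stand beside 13016 tested genes, of which 6100 had a positive log2 fold change and 6916 a negative one. Of those genes 8.87% passed by edgeR, 15.4% by DESeq2, 8.84% by limma-voom and 14.7% by limma-voom with quality weights. Of 9 suprabasal markers 3 rose (Krt10, Sbsn and Grhl3) and 6 did not pass by edgeR. DESeq2 and limma-voom with quality weights each called 6 of the 9 higher, adding Dsg1a, Ivl and Krtdap. All 9 had a positive log2 fold change, with a summed level of 14420 to 18770 CPM in knockouts and 8570 to 13590 CPM in controls. Krt10 was the largest part of that sum (7998 to 10780 CPM in knockouts and 4367 to 6988 CPM in controls). Krt1, the next largest, overlapped between the groups (4107 to 4904 CPM in knockouts and 2520 to 4709 CPM in controls). Of 7 basal markers, led by Krt5 and Krt14, 0 passed by edgeR, DESeq2 or limma-voom and 0 had an unadjusted p under 0.05, with a summed level of 48290 to 57740 CPM in knockouts and 48120 to 55310 CPM in controls. Of 7 hair follicle markers 6 had a negative log2 fold change (median -0.69 over the 7). Lgr5 and Lgr6 fell, to 3.98 and 47.3 CPM in knockouts on average, against 17.0 and 76.1 CPM in controls, and DESeq2 and limma-voom, with or without quality weights, also called Cd34 and Lhx2. The list summed to 689 to 938 CPM in knockouts and 825 to 886.5 CPM in controls, most of it Krt79 (528 to 768 CPM in knockouts and 556 to 657 CPM in controls). The part of these shifts in the values of the Notch genes was not tested. Summed markers of leukocytes (14.3 to 38.5 CPM in knockouts and 16.7 to 48.4 in controls), fibroblasts (3.41 to 24.0 and 5.97 to 12.0) and melanocytes (3.44 to 4.85 and 4.29 to 5.05) overlapped between the groups. Of their tested markers edgeR called 0 of 5, 1 of 4 and 1 of 3. The fibroblast marker Dcn rose to 1.92 ± 0.62 CPM in knockouts, against 0.66 ± 0.23 CPM in controls (SD, n = 4 each, edgeR adjusted p = 0.0201). The melanocyte marker Kit fell to 0.13 ± 0.07 CPM in knockouts, against 0.73 ± 0.23 CPM in controls (edgeR adjusted p = 0.00883). Kit had 1 to 6 counts in knockout libraries and 17 to 35 in controls, and passed the filter through the controls alone.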

How the data were processed

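The authors deposited 1 raw count for each gene symbol and library. The submitters' processing notes name TopHat2 2.1.0, Trimmomatic 0.35, SAMtools 0.1.18, FastQC 0.11.4 and the mm10 build. How reads were assigned to genes (tool, gene models, strand) is not given in the sources used here. In GENCODE M21, 5 members (Notch1, Notch3, Dll1, Rbpj and Maml1) are overlapped by a gene on the opposite strand, so their counts may hold reads of it. The same limit holds for Hmgb1, Dlk2 (overlapped by the protein-coding Abcc10), Dtx3, Neurl1a, Numbl, Aph1c, Krt10 and Cdkn1a. Closing lines of each file, reads outside genes (15.7 to 21.75%) and ambiguous reads (0.918 to 1.11%), were left out. Knockout replicate 4 is the sample with that title; its file carries another number.

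Genes were filtered with filterByExpr by group, scaled by TMM and tested with edgeR's quasi-likelihood test (robust, genotype as the only term), with Benjamini-Hochberg adjustment over 13016 genes and a threshold of 0.05. SE is the absolute log2 fold change over the root of the F statistic, and 95% intervals use the fit's degrees of freedom. Single genes also had an exact two-sided permutation test of log2 CPM over 70 regroupings (smallest p 0.0286). Versions were edgeR 4.0.16, DESeq2 1.42.0 and limma 3.58.1 under R 4.3.3; the steps were tested on simulated data. Coordinates are those of RefSeq GRCm38.p6, the assembly of mm10. Of the 10 members, 8 matched its promoter table, and Hes1 and Hey1 did not. The members, the lists and the alternatives were chosen with earlier results of these data known. Named pathway genes were up to 3 per list by smallest adjusted p, or the highest mean where none passed; genes given beyond these were chosen after their values were seen. One gene was left out of the keratinocyte list and is not reported here. Counts set the precision: 1 count was 0.0279 to 0.0358 CPM.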

Additional observations from a re-analysis of the deposited data

Results flagged for a closer look

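Of 86 groups of 4 libraries examined for genes and ratios whose levels are given, 5 held a library far from the other 3; chance flags about 1 in 20 such groups. Dtx3 was at 26.5 CPM in knockout replicate 3, and at 18.3 to 18.5 CPM in the other knockout libraries. Krt10 was at 6988 CPM in control replicate 4, and at 4367 to 4556 CPM in the other controls. Trp63 was at 847 CPM in knockout replicate 1, and at 740 to 757 CPM in the other knockout libraries. Cldn5 was at 0.0647 CPM, or 2 counts, in knockout replicate 3, and at 0 in the other knockout libraries. Rfng was at 33.7 CPM in control replicate 2, and at 44.3 to 45.3 CPM in the other controls.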

How the results depend on the processing

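Hmgb1, the members, the pathway genes named by rule, Dtx3l and the counts of calls were recomputed under 20 alternatives (19 for Hey1), and the within-library ratios under 9. The other marker genes and keratinocyte genes, among them Trp63, Tslp and Wnt4, were recomputed only with DESeq2 and limma-voom, with or without quality weights. Hmgb1 was called in all 20 (log2 -2.43 to -2.30). Members called, 1 by edgeR as reported, were 2 with DESeq2 (Rbpj and Hey1) or library totals only (Jag2 and Hey1) and 3 with limma-voom quality weights (Jag2, Hes1 and Hey1). They were 0 with no filter on low counts, with a filter of 1 CPM in 4 libraries (which removed Hey1), with the replicate block, with the term for Y-linked transcripts and in the libraries without them, and 0 to 1 leaving out 1 library. The other pathway genes called, 8, were 13 with DESeq2 or quality weights, 4 in the libraries without Y-linked transcripts, and 5 to 9 leaving out 1 library (5 without knockout replicate 2). Over all genes, 1154 calls became 2010 with DESeq2, 1912 with quality weights, 723 with the replicate block, 383 in the libraries without Y-linked transcripts and 462 to 1247 leaving out 1 library (462 without knockout replicate 2, 550 without control replicate 2, 718 without knockout replicate 1, 769 without control replicate 4). Higher calls, 48.8% of all calls, were 27.1% with library totals only. Upper quartile scaling gave 38.9% and the libraries without Y-linked transcripts 36.8%.

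Notch1 turned to 0.001 in the libraries without Y-linked transcripts. Jag1, at 0.00, turned to -0.006 with limma-voom, -0.056 with upper quartile scaling, -0.113 with library totals only, -0.004 with the 1 CPM filter, -0.007 with the replicate block, -0.244 in the libraries without Y-linked transcripts, and ran from -0.104 to 0.109 leaving out 1 library. Dll1, at 0.06, turned to -0.034 with limma-voom, -0.156 with quality weights, -0.001 with upper quartile scaling, -0.064 with library totals only, -0.033 with the replicate block, -0.41 in the libraries without Y-linked transcripts, and ran from -0.314 to 0.226 leaving out 1 library. In those libraries the within-library log2 ratios, knockout minus control, were 0.199 for Notch2 over Notch1, 0.074 for Notch3 over Notch1 and -0.24 for Jag1 over Notch1, against 0.656, 0.473 and 0.198 in all 8. Leaving out 1 library they ran from 0.508 to 0.778, 0.304 to 0.627 and 0.041 to 0.363. The cause of these moves was not tested.

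Same-numbered libraries did not deviate together (correlations -0.228 to -0.053; none was closest to its own number), so the numbers were not taken as pairs. Depth limits Hey1 and the low Hes and Hey genes most.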

Other observations

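Within the control group, values of several genes of this pathway split with the presence of Y-linked transcripts; these genes were picked after their values were seen and the split was not tested. Tslp, a cytokine known to be made by keratinocytes of mouse skin that lacks Notch, reached 64.5 CPM (replicate 2) and 81.1 CPM (replicate 3) in the controls with Y-linked transcripts. The controls that lack them had 10.4 CPM (replicate 1) and 23.1 CPM (replicate 4). Hes1 ran the other way, with 20.8 and 14.3 CPM for controls 2 and 3, and 37.6 and 30.2 CPM for controls 1 and 4. Notch2, Notch3, Jag1, Dll1 and Maml1 were also lower in controls 2 and 3 than in controls 1 and 4. Notch1 was higher there, at 628 and 586 CPM in controls 2 and 3 against 464 and 535 CPM in controls 1 and 4. Jag2, Rbpj and Hey1 did not split. The share of all genes that split in this way was not computed. In the knockouts, replicate 1, the library with Y-linked transcripts, had Tslp at 22.3 CPM and Hes1 at 31.3 CPM, beside Tslp at 10.3 to 21.8 CPM and Hes1 at 33.6 to 47.7 CPM in the other 3. Tslp did not pass between the genotypes (log2 -1.30, 95% interval -2.68 to 0.08, edgeR adjusted p = 0.217).

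Wnt4, which Notch is known to repress in keratinocytes, was at 140, 127, 169 and 127.5 CPM in knockout replicates 1 to 4 and at 207, 157, 184 and 177 CPM in control replicates 1 to 4 (log2 -0.36, 95% interval -0.62 to -0.10, edgeR adjusted p = 0.0791). Control replicate 2 lay inside the knockout range.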
